A study of Homo sapiens with 18 samples.

Results

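A set of 10 genes of the epithelial tight junction was followed across the MCF10 series of breast epithelial lines, with and without a CRISPR construct against METTL3. The genes were CLDN1, CLDN3, CLDN4, CLDN7, OCLN, MARVELD2, MARVELD3, CGN, TJP1 and TJP3, taken by symbol as 10 of the 35933 genes with values, with no threshold on any measured value. METTL3 is the catalytic subunit of the enzyme that writes N6-methyladenosine (m6A) into messenger RNA. The study asked whether lowering it acts differently at successive stages of the MCF10 model. RNA sequencing covered 18 libraries in 6 groups of 3, and the libraries of a group are called a, b and c here. MCF10A is a spontaneously immortalized, non-tumorigenic human breast epithelial line, MCF10AT1 is its derivative carrying an activated HRAS, and MCF10CA1H is a line derived from MCF10AT1 through growth in mice. Each line was given either a control CRISPR construct (genotype Control Negative CRISPR) or a construct against exon 1 of METTL3 (METTL3 CRISPR knockdown). All 6 groups went through transfection, sorting for mCherry and outgrowth from single cells in the same medium with horse serum, and each group is 1 such line. A control group and a knockdown group therefore differ by construct and also by founder cell, and these cannot be told apart. Nothing in the sources says that libraries a, b and c came from separate cultures, so the p-values measure only the spread among these libraries.

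Tight junctions seal the space between neighbouring epithelial cells near their apical side. Claudins form the strands of the seal and set what passes through it, occludin, tricellulin and MarvelD3 are membrane-spanning MARVEL proteins of the same strands, and ZO proteins and cingulin sit beneath the membrane and tie the strands to actin. Mammary epithelium uses these junctions to separate milk from the tissue below, and loss of claudins, occludin and E-cadherin is a textbook feature of epithelial to mesenchymal transition.

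Values were normalized counts, which the authors scaled between libraries, and the sums over all genes lay between 21347352 and 31681834 per library. The depth behind them is unknown. METTL3 RNA (chr14:21498133-21511342, hg38) checked the labels only in part. Its mean was 632.5 in MCF10A controls and 809.9 in libraries labelled knockdown (two-sided exact permutation p = 0.5), 929.9 and 823.3 in MCF10AT1 (exact permutation p = 0.3), and 1134.9 and 804.1 in MCF10CA1H (exact permutation p = 0.1, the smallest that 3 against 3 libraries can give). In the limma fits described below METTL3 passed in MCF10CA1H (log2 fold change −0.49, adjusted p = 0.0234), a call kept in 4 of 6 fits that leave out a library. It did not pass in MCF10A or MCF10AT1 (limma, adjusted p = 0.618 and 0.707). Groups did not overlap in MCF10CA1H alone, and a CRISPR cut in exon 1 need not lower the RNA, so the libraries are called labelled knockdown throughout. By Western blot the authors report less METTL3 protein in knockdown lines of each parent line, only moderately so in MCF10CA1H. By real-time PCR they report a smaller effect on METTL3 RNA that kept the relative decrease in knockdown lines. The sequenced MCF10A libraries do not show that decrease. They also report m6A in total RNA as significantly lower in MCF10AT1 and MCF10CA1H knockdown lines, with a decrease in MCF10A that was not significant. Of the 12 markers of breast epithelium, 11 in MCF10A control libraries and 12 in MCF10AT1 and MCF10CA1H control libraries reached a normalized count of 10 in at least 1 library. Of the 6 endothelial markers, CDH5, VWF and CLDN5 stayed under 10 in all 18 libraries, while PECAM1, KDR and TEK exceeded it in some. Of the 5 leukocyte markers with values, PTPRC and CD3E stayed under 10 throughout, and CD14, CD68 and ITGAM did not. The summed endothelial level was 56 to 237 in MCF10A controls and 339 to 536 in knockdown libraries, 235 to 867 and 382 to 644 in MCF10AT1, and 101 to 141 and 46 to 77 in MCF10CA1H, and most of it was PECAM1 in the MCF10AT1 libraries. The summed leukocyte level was 753 to 2114 and 314 to 548 in MCF10A, 803 to 1527 and 1972 to 2965 in MCF10AT1, and 857 to 956 and 753 to 985 in MCF10CA1H. Control and knockdown sums overlapped for the endothelial markers in MCF10AT1 and the leukocyte markers in MCF10CA1H and not otherwise, and their part in the results below was not tested.

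In MCF10AT1 nearly the whole set fell in the libraries labelled knockdown, with CLDN7, CLDN4, MARVELD3 and CGN at 1.43% of control or less. In MCF10CA1H 3 genes (CLDN4, OCLN and TJP3) fell to between 24.0% and 42.0% of control. In MCF10A CLDN1 rose and CLDN7 fell. CLDN3 was too low to test (mean under 10) in every comparison, so 9 of the 10 genes were tested. A gene was called when its adjusted p was under 0.05 (limma on log2 of the normalized count plus 1, two-sided, Benjamini-Hochberg over all genes tested). By that measure 8 of 9 genes fell and none rose in MCF10AT1, where 13.0% of all tested genes were called 5.96% lower and 7.07% higher. In MCF10CA1H 3 of 9 fell and none rose, against 12.8% of all genes called, 4.85% lower and 7.91% higher. In MCF10A 1 rose and 1 fell of 9, against 2.65% of all genes called, 1.16% higher and 1.49% lower. The median log2 fold change of the 9 genes was −4.90 in MCF10AT1, −1.05 in MCF10CA1H and −0.02 in MCF10A, while that of all tested genes was 0.02, −0.02 and 0.00. Control and labelled knockdown libraries did not overlap for 8 of the 9 genes in MCF10AT1, 4 in MCF10CA1H and 5 in MCF10A, which holds for 32.8%, 32.7% and 23.9% of all tested genes. In bulk RNA, fewer cells with a transcript and less transcript per cell cannot be told apart.

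The counts of called genes rested on single libraries in MCF10A and MCF10CA1H but not in MCF10AT1. In MCF10A, 4 genes were called without control a, 1 without knockdown b, and 0 without control b, knockdown a or knockdown c. In MCF10CA1H, 1 was called without control a, control c or knockdown b. In MCF10AT1 the count lay between 6 and 8. Libraries with the same letter deviated together in MCF10A and MCF10AT1, though no source says that they were handled together. With the letter as a block CLDN4 was called in MCF10A and TJP1 in MCF10AT1 as well. That makes 3 and 9 of 9 genes, while 7.60% and 24.5% of all genes were called in those blocked fits.

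**Figure D1:**
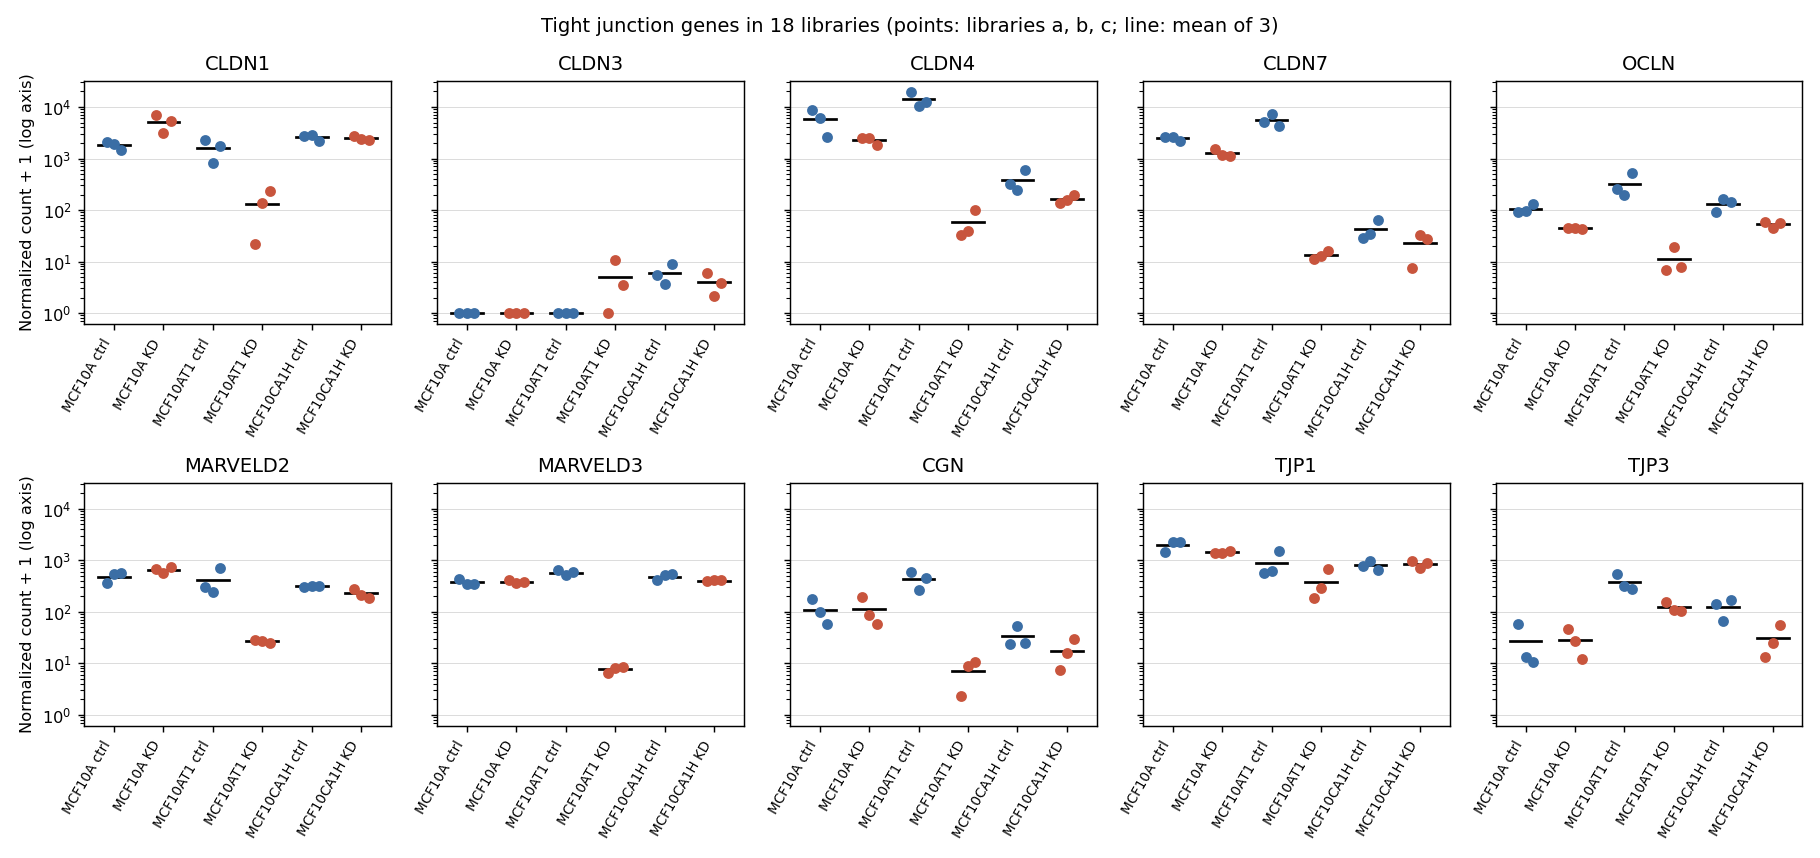
Normalized count plus 1 on a log axis for the 10 tight junction genes. Points are libraries a, b and c of each group (blue, control; red, labelled knockdown, KD) and horizontal lines are the means of 3 libraries. The MCF10AT1 knockdown libraries are the lowest of the 18 for CLDN1, CLDN4, OCLN, MARVELD2 and MARVELD3, and CLDN4 and CLDN7 are also low in both MCF10CA1H groups.

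**Figure D2:**
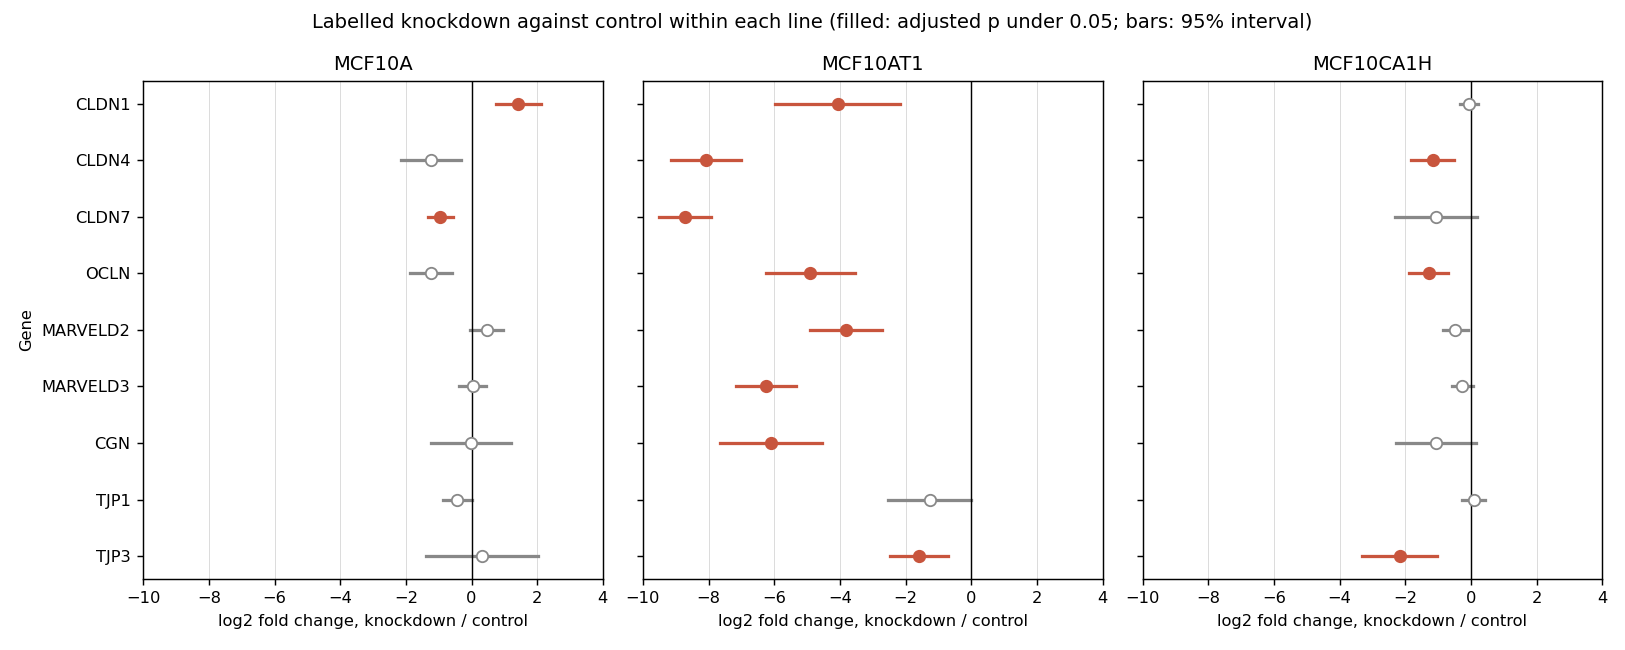
Log2 fold change of the libraries labelled knockdown over the controls of the same line, with 95% intervals from limma, for the 9 tested genes. Filled red points passed an adjusted p of 0.05 and open grey points did not. Points lie between −8.71 and −1.27 in MCF10AT1, between −2.16 and 0.08 in MCF10CA1H and between −1.23 and 1.42 in MCF10A.

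CLDN4 and CLDN7 encode claudins of simple and glandular epithelia, and they had the widest range of the set. CLDN4 lies at chr7:73799542-73832690 on the plus strand (hg38, GENCODE 44). Its normalized count was 19484, 10564 and 12606 in MCF10AT1 control libraries a, b and c and 31.7, 38.7 and 101 in the libraries labelled knockdown. Every control library was far above every knockdown library, and the knockdown mean was 0.401% of the control mean (log2 fold change −8.08, SE 0.46, adjusted p = 3.92e-05, limma). In MCF10CA1H the controls held 317, 246 and 586 and the knockdown libraries 134, 153 and 196. These groups did not overlap either, at 42.0% of control (log2 fold change −1.16, SE 0.29, adjusted p = 0.0261), but the call was kept in only 2 of the 6 fits that leave out a library and was lost without control a, control c, knockdown a or knockdown b. In MCF10A the controls spread widely, at 8929, 6025 and 2610.2, and the knockdown libraries held 2494.5, 2463 and 1796. The lowest control still lay above the highest knockdown library. The difference at 38.5% of control did not pass (log2 fold change −1.22, SE 0.40, adjusted p = 0.154, and 0.0183 with the letter as a block).

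CLDN7 lies at chr17:7259903-7263983 on the minus strand. Its normalized count was 5002, 7369.7 and 4331 in the MCF10AT1 controls and 9.95, 11.6 and 14.9 in the libraries labelled knockdown. The knockdown mean was 0.218% of control, the deepest fall of the set (log2 fold change −8.71, SE 0.34, adjusted p = 1.87e-05). In MCF10A the controls held 2597, 2597 and 2201 and the knockdown libraries 1525, 1169 and 1136. All knockdown libraries were below all controls, at 51.8% of control (log2 fold change −0.96, SE 0.17, adjusted p = 0.0281), a call that was lost without control b or any of the knockdown libraries (adjusted p between 0.0598 and 0.12). In MCF10CA1H CLDN7 was low in both groups, at 28.2, 33.3 and 61.6 in controls and 6.42, 32.3 and 26.95 in knockdown libraries. The groups overlapped there (log2 fold change −1.06, 95% interval −2.32 to 0.20, adjusted p = 0.254).

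The promoter of CLDN7 is printed because this gene had the deepest fall. Its start also carried the most E2-box matches among the 15 promoter windows of these genes. The E2-box, CACCTG or CAGGTG on the other strand, is the short motif known for binding zinc finger factors such as ZEB and SNAI proteins. The window is the 250 bases before the start (RefSeq, GRCh38.p14, chr17:7262479-7262728, minus strand, written 5′ to 3′ along the gene), and capitals mark the 4 matches, which lie 174 to 169, 135 to 130, 20 to 15 and 9 to 4 bases before the start.
CLDN7 promoter: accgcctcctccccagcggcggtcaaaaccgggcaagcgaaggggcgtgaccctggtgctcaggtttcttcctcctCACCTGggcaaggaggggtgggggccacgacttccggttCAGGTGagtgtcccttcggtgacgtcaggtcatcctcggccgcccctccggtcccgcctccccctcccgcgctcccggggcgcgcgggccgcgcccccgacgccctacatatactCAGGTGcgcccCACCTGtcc

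CLDN1 encodes a claudin of stratified epithelium, and it lies at chr3:190305707-190322446 on the minus strand. It was the gene called in opposite directions in MCF10A and MCF10AT1. In MCF10A its normalized count was 2128, 1913 and 1473 in controls and 7119, 3088 and 5270.1 in the libraries labelled knockdown. Each knockdown library exceeded each control, at 281% of the control mean (log2 fold change 1.42, SE 0.30, adjusted p = 0.049). The call was lost without control b, control c, knockdown a or knockdown c (adjusted p between 0.125 and 0.167), and the direction was kept. In MCF10AT1 the controls held 2333, 801 and 1742 and the knockdown libraries 20.6, 135 and 231. The knockdown libraries differed widely among themselves, with a the lowest, and the highest was still below the lowest control (7.93% of control, log2 fold change −4.07, SE 0.83, adjusted p = 0.0146, and 0.0714 without control a). In MCF10CA1H, at 2696, 2834 and 2149 in controls and 2762, 2352 and 2243 in knockdown libraries, the groups overlapped (log2 fold change −0.06, 95% interval −0.34 to 0.23, adjusted p = 0.809).

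CLDN3 encodes a claudin often paired with CLDN4, and its start lies 60726 bases from that of CLDN4 on the opposite strand (chr7:73768997-73770270). It was listed at 0 in all 6 MCF10A libraries and in the 3 MCF10AT1 controls. The MCF10AT1 knockdown libraries held 0, 9.70 and 2.43, the MCF10CA1H controls 4.52, 2.65 and 7.96 and the MCF10CA1H knockdown libraries 5.06, 1.16 and 2.90. No value reached 10, so neither a fold nor a test is given.

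The 3 MARVEL genes all fell in MCF10AT1, and OCLN also fell in MCF10CA1H. OCLN, at chr5:69492292-69558104, encodes occludin. Its normalized count was 253, 198 and 524 in MCF10AT1 controls and 5.78, 18.15 and 6.72 in the libraries labelled knockdown. The groups were far apart, at 3.14% of control (log2 fold change −4.90, SE 0.59, adjusted p = 0.00123). In MCF10CA1H the controls held 90.1, 164 and 141 and the knockdown libraries 57.2, 43.3 and 55.9. OCLN was the gene whose call in MCF10CA1H was kept in all 6 fits that leave out a library (39.6% of control, log2 fold change −1.29, SE 0.27, adjusted p = 0.012). In MCF10A the controls held 91.7, 92.85 and 127 and the knockdown libraries 43.2, 44.4 and 42.3, again without overlap. At 41.7% of control this difference was close to that in MCF10CA1H in size and did not pass (log2 fold change −1.23, SE 0.28, adjusted p = 0.0618).

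MARVELD2, at chr5:69415065-69444330 beside OCLN on chromosome 5, encodes tricellulin, which seals the points where the corners of cells meet. In MCF10AT1 its controls held 303, 242.5 and 708 and its knockdown libraries 26.8, 26.6 and 23.6. The knockdown libraries were nearly alike and far below the lowest control, at 6.14% of the control mean (log2 fold change −3.81, SE 0.48, adjusted p = 0.00147). In MCF10A it was 358.5, 528 and 558 in controls and 682, 561 and 722 in knockdown libraries (log2 fold change 0.46, 95% interval −0.04 to 0.96, adjusted p = 0.309). In MCF10CA1H it was 302, 308 and 321 and 280.4, 214 and 185 (log2 fold change −0.47, adjusted p = 0.109), and the groups of either line did not overlap.

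MARVELD3, at chr16:71626161-71642114, encodes MarvelD3, a junction protein known to recruit the kinase MEKK1. It had the narrowest spread outside MCF10AT1 knockdown, from 351 to 630 in the other 15 libraries. In MCF10AT1 the controls held 630.3, 515 and 581 and the libraries labelled knockdown 5.46, 7.06 and 7.40. This fall to 1.15% of control was uniform over the 3 libraries (log2 fold change −6.24, SE 0.40, adjusted p = 5.72e-05). In MCF10A the controls held 427, 351 and 351 and the knockdown libraries 406, 364 and 383, and in MCF10CA1H the controls held 406, 508 and 529 and the knockdown libraries 387, 407 and 403. The groups overlapped in MCF10A (log2 fold change 0.03, 95% interval −0.37 to 0.44, adjusted p = 0.949) and in MCF10CA1H (log2 fold change −0.26, 95% interval −0.57 to 0.05, adjusted p = 0.255).

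Of the plaque genes, CGN nearly vanished in MCF10AT1 libraries labelled knockdown, while TJP1 and TJP3 stood at 42.8% and 32.2% of control. CGN, at chr1:151510510-151538692, encodes cingulin, which joins ZO proteins to actin and myosin. Its normalized count was 584, 257.5 and 457 in MCF10AT1 controls and 1.30, 7.84 and 9.49 in the libraries labelled knockdown. All knockdown libraries were under 10, at 1.43% of control (log2 fold change −6.10, SE 0.68, adjusted p = 7.9e-04). In MCF10A the controls held 172, 99.0 and 56.6 and the knockdown libraries 192, 85.5 and 56.3, and the groups overlapped almost wholly (log2 fold change −0.02, 95% interval −1.24 to 1.21, adjusted p = 0.992). In MCF10CA1H the levels were 22.3, 52.8 and 23.5 and 6.50, 14.5 and 28.9, also overlapping (log2 fold change −1.05, 95% interval −2.27 to 0.17, adjusted p = 0.246).

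The promoter of CGN is printed because it was the only one of the windows searched, which cover 9 of the 10 genes, with a match to the Grainyhead-like motif, AACCNGTT or AACNGGTT on the other strand, the motif known for GRHL factors. The window is the 250 bases before the start (RefSeq, GRCh38.p14, chr1:151511137-151511386, plus strand, 5′ to 3′), and capitals mark the match 27 to 20 bases before the start.
CGN promoter: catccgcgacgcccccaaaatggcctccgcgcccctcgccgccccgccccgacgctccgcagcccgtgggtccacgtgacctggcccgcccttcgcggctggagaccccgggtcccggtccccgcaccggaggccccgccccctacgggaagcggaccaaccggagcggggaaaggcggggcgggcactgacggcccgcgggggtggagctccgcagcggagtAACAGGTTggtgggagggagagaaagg

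TJP1, at chr15:29699367-29968915, encodes ZO-1, the scaffold that also serves adherens junctions. In MCF10AT1 the controls held 553, 608 and 1486 and the libraries labelled knockdown 186, 286 and 659. Knockdown c lay above controls a and b, so the groups overlapped (42.8% of control, log2 fold change −1.27, SE 0.55, adjusted p = 0.178). In both groups library c was the highest, and with the letter as a block the adjusted p was 0.00658. In MCF10A it was 1473, 2209.7 and 2253 in controls and 1387, 1397 and 1526 in knockdown libraries (log2 fold change −0.44, 95% interval −0.87 to 0.00, adjusted p = 0.273). In MCF10CA1H it was 780.4, 949 and 654 and 944, 695 and 876 (log2 fold change 0.08, 95% interval −0.28 to 0.44, adjusted p = 0.784).

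TJP3, at chr19:3708362-3750813, encodes ZO-3, the ZO protein most restricted to epithelia. It had the largest fall in MCF10CA1H, from 141, 65.1 and 168 in controls to 12.1, 23.5 and 53.9 in the libraries labelled knockdown. At 24.0% of control it passed (log2 fold change −2.16, SE 0.51, adjusted p = 0.0215), and it did so in 3 of the 6 fits that leave out a library, being lost without control a, control c or knockdown b. In MCF10AT1 the controls held 534, 319 and 277 and the knockdown libraries 152, 108 and 104. The fall to 32.2% of control was the smallest among the genes called in that line (log2 fold change −1.59, SE 0.38, adjusted p = 0.0283) and was lost without control a or any of the knockdown libraries (adjusted p between 0.0502 and 0.135) and in the fit of 18 libraries (adjusted p = 0.0721). In MCF10A it was 55.7, 12.0 and 9.74 in controls and 44.9, 25.7 and 11.3 in knockdown libraries, with library a the highest in either group (log2 fold change 0.31, 95% interval −1.39 to 2.01, adjusted p = 0.874).

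The RefSeq promoter table used here had 15 windows for 9 of the 10 genes, and MARVELD3 was not among them. The E2-box was matched in 5 of the 15 windows and in 17.5% of 35116 promoter windows of the same length. At the window nearest the canonical start it was matched in 2 of the 9 genes, CLDN7 and OCLN, and OCLN had a match in a further window as well. The matches of TJP1 and TJP3 lay at other starts, 146581 and 13353 bases from the canonical start. The Grainyhead-like motif was matched in 1 of the 15 windows and in 1.5% of all promoter windows. CLDN4, which fell alongside CLDN7, held neither set of letters in its window. The matches describe letters in these windows, and binding was not measured.

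The negative control lines differed among themselves without a construct against METTL3. Each control group is also 1 line grown from a single cell. Parent line and founder cell therefore cannot be told apart in any comparison of control lines. MCF10AT1 controls were the highest of the 3 for 6 genes (CLDN4, CLDN7, OCLN, MARVELD3, CGN and TJP3), and MCF10CA1H controls had almost lost CLDN7 and much of CLDN4 and CGN. Against MCF10A, 6 of 9 genes were higher and 1 was lower in MCF10AT1, where 28.1% of all tested genes were called, 13.3% higher and 14.7% lower. TJP3 was 1460% of its MCF10A level (log2 fold change 4.18, SE 0.63, adjusted p = 0.00281) and CGN 396% (log2 fold change 2.04, adjusted p = 0.0183). OCLN stood at 313% (adjusted p = 0.0212), CLDN7 at 226% (adjusted p = 0.0255), CLDN4 at 243% (adjusted p = 0.0498) and MARVELD3 at 153% (adjusted p = 0.0488). TJP1 was lower, at 44.6% (adjusted p = 0.0302), although MCF10AT1 control c (1486) lay within the MCF10A range. Of these 7 calls only that of TJP3 was kept in all 9 fits that leave out a control library. The count was 1 without MCF10A control b or MCF10AT1 control a, 2 without MCF10A control c, and 4 without MCF10AT1 control b or MCF10CA1H control a. When the libraries were scaled to equal sums it was 3 higher and 1 lower. With the letter as a block, which does not pair these controls, 5 genes were called against 23.5% of all genes.

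MCF10CA1H controls had 1.66% of the MCF10A level of CLDN7 (log2 fold change −5.95, SE 0.31, adjusted p = 7.06e-06) and 6.54% of that of CLDN4 (log2 fold change −3.86, SE 0.47, adjusted p = 4.76e-04). CGN was at 30.1% (adjusted p = 0.0263) and TJP1 at 40.2% (adjusted p = 0.0205), while TJP3 was higher at 482% (adjusted p = 0.012). That is 1 higher and 4 lower of 9, against 37.8% of all tested genes called, 19.0% higher and 18.8% lower. CLDN4 and CLDN7 kept their calls in all 9 fits that leave out a control library, and the count was 3 without MCF10A control b or MCF10CA1H control a and 2 without MCF10CA1H control c. Against MCF10AT1, MCF10CA1H controls were lower for CLDN7 (0.737%, log2 fold change −7.09, adjusted p = 3.68e-06), CLDN4 (2.69%, log2 fold change −5.26, adjusted p = 1.51e-04) and CGN (7.58%, log2 fold change −3.71, adjusted p = 0.00119). These were 3 of 9 genes with 21.8% of all genes called and 10.8% called lower, and all 3 calls were kept in every fit that left out a control library. OCLN at 40.5% missed the threshold (log2 fold change −1.21, adjusted p = 0.0527). CLDN1 (95% interval −0.31 to 1.28 against MCF10A) and MARVELD2 (−1.44 to 0.23) passed no comparison of control lines. The 3 comparisons share their control libraries and are not independent of each other.

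In order of mean level over the 6 groups, CLDN4 ran from MCF10AT1 control through MCF10A control, MCF10A knockdown, MCF10CA1H control and MCF10CA1H knockdown to MCF10AT1 knockdown, and no neighbours in that order overlapped. CLDN7 had the same order, but MCF10CA1H knockdown overlapped with the groups on either side of it. MCF10AT1 knockdown was the lowest group for 8 of the 10 genes, the exceptions being CLDN3 and TJP3. For TJP3 the lowest were the MCF10A groups, which overlapped.

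Whether the gap between labelled knockdown and control, called the response here, differed between lines was tested in a fit of the 18 libraries. The test was on the difference of the log2 fold changes. Each group is 1 line grown from a single cell, so construct and founder cell cannot be told apart in this test. The response was more negative in MCF10AT1 than in MCF10A for 7 of 9 genes, against 21.6% of all tested genes called and 10.5% in that direction. The difference was largest for CLDN7 (−7.75, adjusted p = 1.79e-07) and smallest of the 7 for OCLN (−3.67, adjusted p = 2.33e-04). MCF10CA1H was above MCF10AT1 in response for those 7 genes, from 3.34 for MARVELD2 (adjusted p = 4.51e-05) to 7.65 for CLDN7 (adjusted p = 2.27e-07), against 18.2% of all genes called and 9.67% in that direction. Both contrasts share the MCF10AT1 libraries. All 14 calls were kept in each of the 18 fits that leave out a library. TJP1 and TJP3 passed neither contrast (MCF10AT1 against MCF10A, −0.84 with adjusted p = 0.315 and −1.90 with adjusted p = 0.158). Between MCF10CA1H and MCF10A, 0 of 9 genes passed in limma and 1 was under an unadjusted p of 0.05 (TJP3, difference −2.47, adjusted p = 0.151), while 5.34% of all genes passed. For CLDN1 that difference was −1.48 (95% interval −3.31 to 0.34, adjusted p = 0.422), so these responses were not shown to differ.

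To compare levels between genes, normalized counts were divided by the length of the canonical GENCODE 44 transcript, and the transcripts behind the authors' values are not given in the sources used here. Per kb, CLDN4 was the highest of the 10 genes in MCF10A controls (3454 ± 1866, SD, n = 3) and MCF10AT1 controls (8388 ± 2757). CLDN1 was the highest in MCF10CA1H controls (743 ± 105) and knockdown libraries (712 ± 79.4) and in MCF10A knockdown libraries (1497 ± 585). In the MCF10A knockdown libraries CLDN1 (896 to 2066) overlapped with CLDN4 (1059 to 1472). TJP1 had the highest mean in MCF10AT1 knockdown libraries, at 52.5 ± 34.7 per kb, with the mean of each claudin below it. Its libraries ran from 25.9 to 91.7 and overlapped with those of TJP3 (33.7 to 49.5).

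The make-up of the 4 claudins differed between groups. Per kb, CLDN1 was 8.16%, 9.58% and 12.6% of the claudin sum in MCF10A controls a, b and c and 45.6%, 28.8% and 46% in the libraries labelled knockdown. In MCF10AT1 its share was 4.39%, 2.07% and 4.7% in controls and 19.2%, 50.8% and 48.6% in knockdown libraries, and the groups did not overlap in either line. In MCF10A CLDN1 itself rose, whereas in MCF10AT1 it fell, with a log2 fold change of −4.07 beside −8.08 for CLDN4 and −8.71 for CLDN7. The summed claudin level was 5586 ± 2095 (SD, n = 3) in MCF10A controls and 3653 ± 764 in knockdown libraries, and it went from 12470 ± 2563 to 82 ± 54 in MCF10AT1. In MCF10CA1H the share of CLDN1 was already 74.4 ± 11.5% in controls and 86.3 ± 3.7% in knockdown libraries, with sums of 999 ± 14 and 823 ± 57. These shares are descriptions and were not tested.

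**Figure D3:**
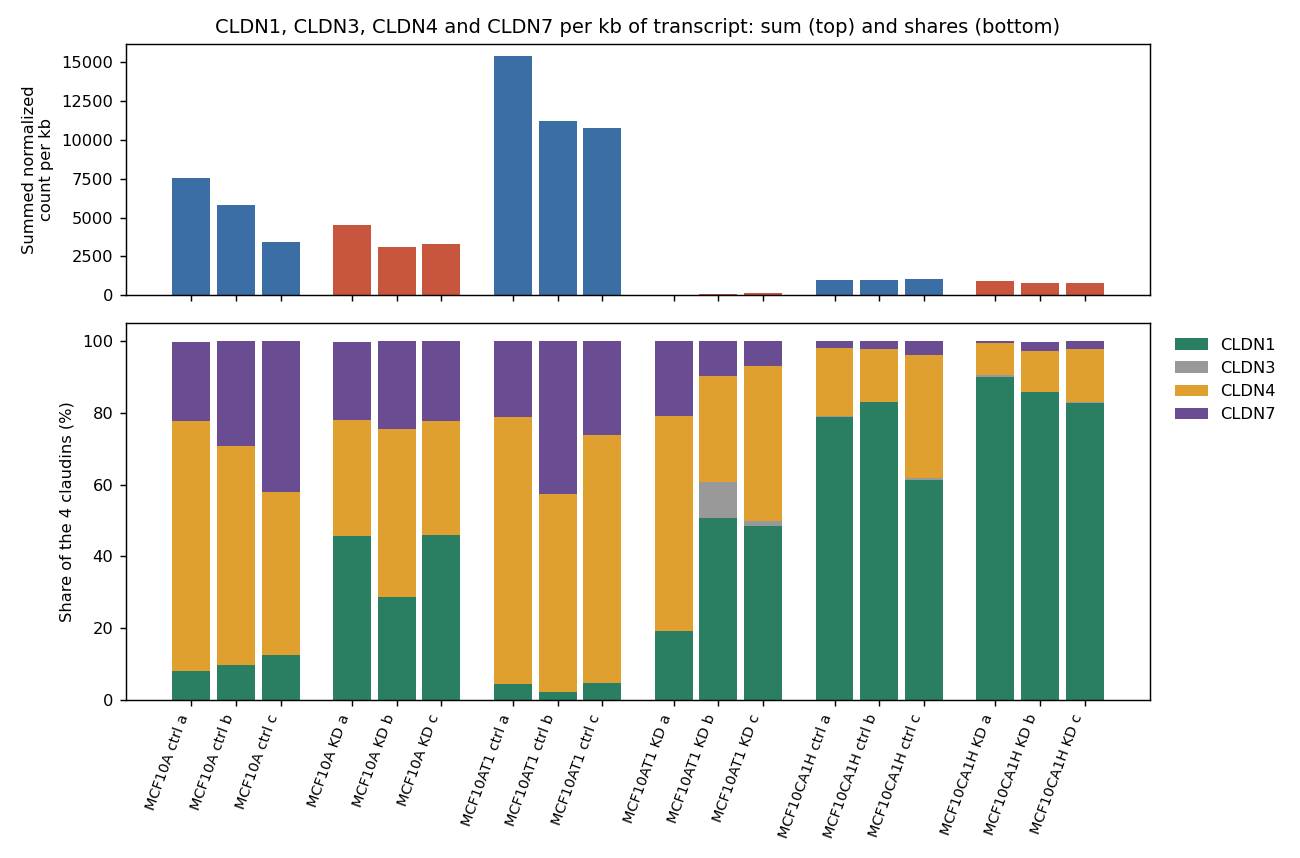
Summed normalized count per kb of CLDN1, CLDN3, CLDN4 and CLDN7 (top) and the share of each in that sum in percent (bottom), 1 bar per library. CLDN1 has at most 12.6% in the MCF10A and MCF10AT1 controls and between 61.4% and 90.2% in the MCF10CA1H libraries, and the sum is close to 0 in MCF10AT1 knockdown (KD) libraries.

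The fall in MCF10AT1 reached a part of the other junction genes. A list of 47 further tight junction genes (other claudins, JAM proteins, angulins, the PAR and Crumbs polarity complexes, MAGI and angiomotin scaffolds) had 44 in the table. In MCF10AT1 27 were tested, of which 8 fell (CLDN8, CLDN12, CLDN23, F11R, LSR, PATJ, PALS1 and CRB3) and 0 rose, with a median log2 fold change of −1.05, beside 5.96% of all tested genes called lower and 7.07% higher. Blocking on the letter, 11 fell and 2 rose (ARHGEF2 and SYMPK), beside 24.5% of all genes called in that blocked fit. CRB3, a Crumbs polarity protein of the apical membrane, was 188, 292 and 219 in controls and 0, 4.49 and 1.90 in knockdown libraries (log2 fold change −6.52, SE 0.71, adjusted p = 7.26e-04). LSR, the angulin that recruits tricellulin, was 3747, 3379.7 and 3305 in controls and 784, 1114 and 810.0 in knockdown libraries (26.0% of control, log2 fold change −1.96, SE 0.26, adjusted p = 0.00181). CLDN12, a claudin known for calcium passage, was 279, 149 and 512 in controls and 51.4, 87.6 and 94.8 in knockdown libraries, at 24.9% of control (log2 fold change −1.87, SE 0.52, adjusted p = 0.0495). In MCF10CA1H 24 were tested, 2 rose (AMOTL1, log2 fold change 0.69, and ARHGEF2, 0.46) and 1 fell (MAGI1, −0.71). These 3 of 24 are near the 12.8% of all genes called. In MCF10A 0 of 22 passed in limma, where 2.65% of all genes did, and 3 were under an unadjusted p of 0.05. The share of all genes at that unadjusted p is not given. With the letter as a block 1 passed in MCF10A (ARHGEF2, log2 fold change −0.77, adjusted p = 0.04), beside 7.60% of all genes.

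A list of 10 transcription factors known to act on junction genes was followed as well. GRHL and OVOL factors and ELF3 hold up epithelial genes, and ZEB, TWIST and SNAI2 proteins repress them. In MCF10AT1 6 of 10 fell (GRHL1, GRHL2, OVOL1, OVOL2, ELF3 and SNAI2) and 1 rose (GRHL3), beside 5.96% of all tested genes called lower and 7.07% higher. With the letter as a block ZEB1 and ZEB2 rose as well, which makes 9 of 10, beside the 24.5% of all genes called in that fit. The genes below were chosen after their values were seen. GRHL2 held 587, 383 and 963 in MCF10AT1 controls and 0.92, 32.6 and 0.98 in the libraries labelled knockdown (log2 fold change −6.90, SE 1.06, adjusted p = 0.00396). OVOL2 held 562, 736 and 377 and 0, 3.49 and 1.45 (log2 fold change −7.92, SE 0.65, adjusted p = 2.02e-04). All 3 knockdown libraries of OVOL2 were under 10, and GRHL2 was under 10 in a and c. GRHL3 was the factor that rose, from 34.0, 36.05 and 158 to 542, 674 and 1900.0 (log2 fold change 3.91, SE 0.69, adjusted p = 0.00781). The repressors did not move one way. SNAI2 fell (19.9% of control, log2 fold change −2.44, adjusted p = 0.0249). ZEB1 held 1.36, 1.28 and 41.0 in controls and 46.9, 33.6 and 148 in knockdown libraries, with control c above knockdown b (log2 fold change 3.37, SE 1.18, adjusted p = 0.104, and 0.00522 with the block). ZEB2 held 19.85, 2.04 and 45.7 and 92.2, 125 and 243, without overlap (log2 fold change 3.31, SE 0.96, adjusted p = 0.0582, and 0.00356 with the block). The response of both was above that in MCF10A (difference 4.20 with adjusted p = 0.0197 for ZEB1 and 3.03 with adjusted p = 0.0427 for ZEB2).

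In MCF10CA1H GRHL2 and OVOL1 were near 0 already in controls. GRHL2 held 1.44, 2.13 and 0 there, against 457, 473 and 282 in MCF10A controls (log2 fold change −7.65, SE 0.50, adjusted p = 2.8e-05), and OVOL1 0.77, 0.76 and 2.67 against 147, 126 and 69.9 (log2 fold change −5.61, SE 0.51, adjusted p = 1.36e-04). In these controls CLDN4, CLDN7, CGN and TJP1 were lower than in MCF10A and TJP3 was higher, while CLDN1, OCLN, MARVELD2 and MARVELD3 did not pass. A link between the factors and these genes was not tested. OVOL2 stood at 99.0% of its MCF10A level in MCF10CA1H controls. In MCF10A 0 of 10 factors passed on knockdown in limma and 3 were under an unadjusted p of 0.05. In MCF10CA1H 0 of 8 passed and 2 were under that unadjusted p. The share of all genes under it is not given. With the letter as a block 1 factor rose in MCF10A (GRHL2, log2 fold change 0.96, adjusted p = 0.023), beside 7.60% of all genes.

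**Figure D4:**
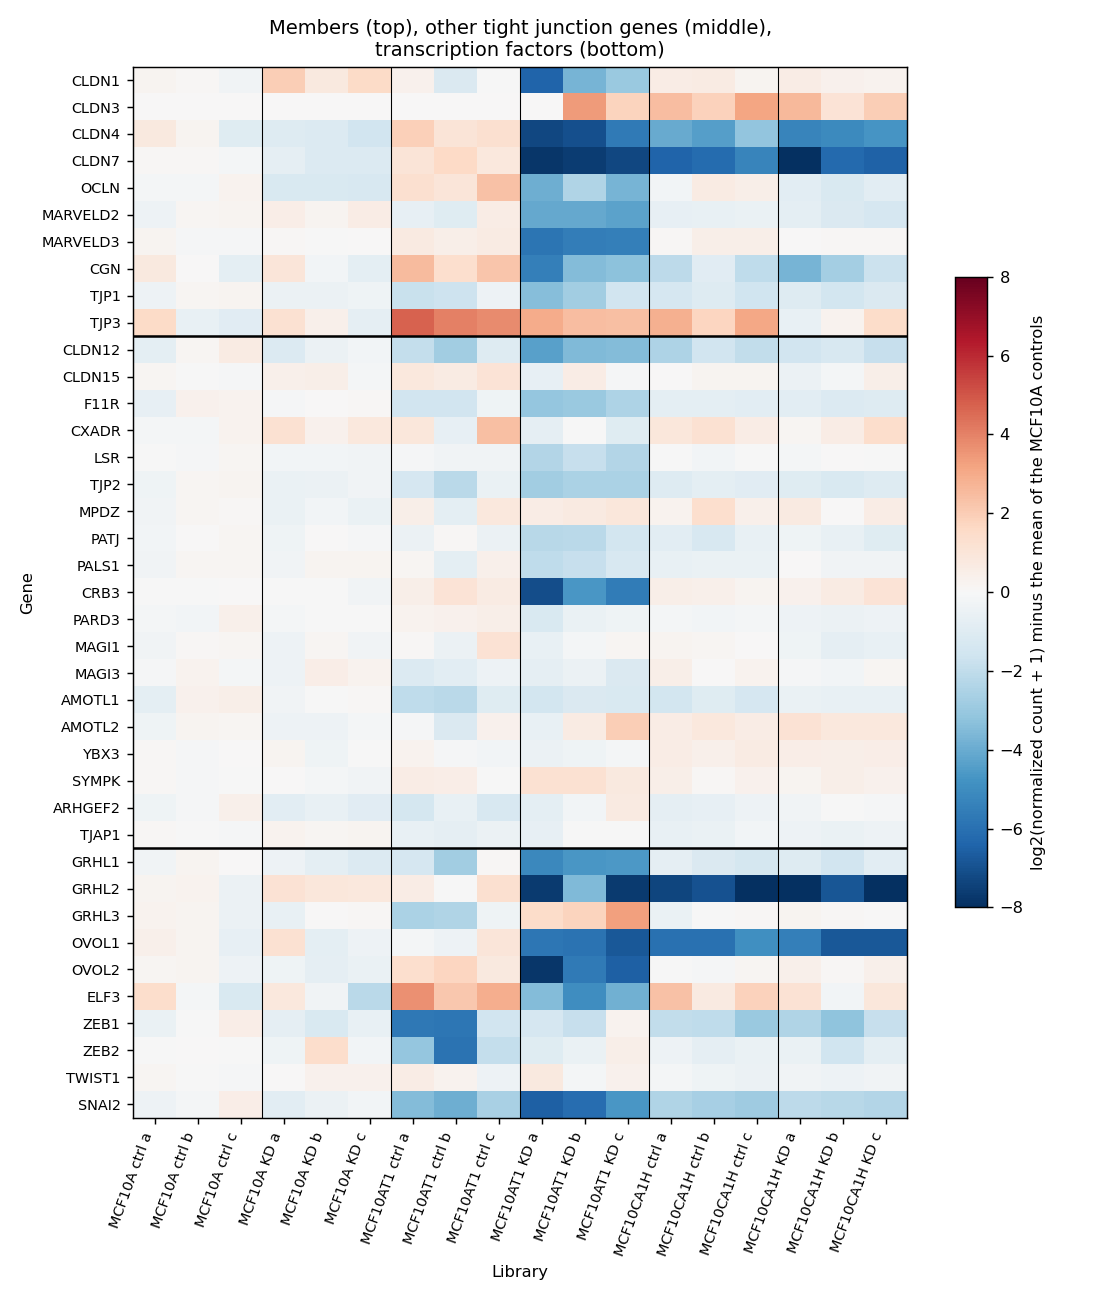
Log2 of the normalized count plus 1 in each of the 18 libraries, minus the mean of the 3 MCF10A controls, for the 10 genes (top block), the 19 further tight junction genes with a mean of at least 50 (middle) and the 10 transcription factors (bottom). Colour runs from −8 (blue) to 8 (red), and values beyond share the end colour. CLDN4, CLDN7 and GRHL2 are blue both in MCF10AT1 knockdown (KD) libraries and in all MCF10CA1H libraries, while MARVELD2, MARVELD3 and OVOL2 are dark blue in the former alone. A link between the factors and the junction genes was not tested.

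Markers of cell state moved with the MCF10AT1 result. Of the 12 epithelial markers, 7 fell in MCF10AT1 (EPCAM, CDH1, KRT5, KRT14, KRT17, KRT6A and SFN) and 0 rose, where 5.96% of all tested genes were called lower and 7.07% higher. The block by letter gave 8 lower, KRT19 among them, and 1 higher (ITGB4), beside 24.5% of all genes called in that fit. Of the leukocyte markers it called CD14 higher (log2 fold change 1.31, adjusted p = 0.00624). The summed normalized count of the epithelial markers was between 162789 and 248375 in controls and between 105960 and 194961 in libraries labelled knockdown. ITGB4 was the largest part of the sum in each knockdown library, at 48088, 92425 and 167977, against 29884, 51829 and 21514 in controls. The sum therefore does not follow the 7 markers that fell. CDH1, E-cadherin, fell to 1.05% of control (log2 fold change −6.79, adjusted p = 4.74e-04). Of the 10 mesenchymal markers 8 were tested, 4 rose (VIM, COL3A1, COL6A2 and THY1) and 0 fell, with or without the block. Their sum was between 3794 and 5109 in controls and between 63141 and 75675 in knockdown libraries, most of it VIM, and COL1A2 and LUM stayed under 10 in all 3 knockdown libraries. The part of these markers in the result was not tested. In MCF10CA1H 6 epithelial markers rose (KRT5, KRT14, KRT17, KRT6A, SFN and ITGB4) and 0 fell while CLDN4, OCLN and TJP3 fell, against 7.91% of all tested genes called higher. Of the 9 mesenchymal markers tested in that line, DCN and FAP rose and COL3A1 fell. Of its endothelial and leukocyte markers, PECAM1 and CD14 fell and CD68 rose, beside 4.85% of all tested genes called lower. In MCF10A, where 2.65% of all genes were called, KRT5 was the 1 gene of the epithelial, mesenchymal, endothelial and leukocyte lists that passed. Under the letter block ITGB4, KRT14, KRT6A, VIM, FAP and CD68 fell there and PECAM1 rose as well (adjusted p between 0.00289 and 0.0468), beside 7.60% of all genes.

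The genes whose profile was most like the set were sought by correlation with the mean standardized log2 level of the 10 genes over the 18 libraries, among 12438 genes with a mean of at least 50. The closest were ADAP1 (r = 0.972), LLGL2 (r = 0.942), FUT3 (r = 0.938), LINC02188 (r = 0.938) and EDN1 (r = 0.933). Without the MCF10AT1 knockdown libraries r was 0.879, 0.80, 0.728, 0.834 and 0.744 over 15 libraries. LLGL2, a polarity protein of the basolateral membrane, had means of 2595.2 in MCF10AT1 controls and 111.5 in knockdown libraries. Within the set, CLDN4 and CLDN7 had r = 0.97 over 18 libraries and 0.97 over the 15 without MCF10AT1 knockdown, and CLDN4 and CGN 0.94 and 0.92. By contrast r for MARVELD2 and MARVELD3 went from 0.91 to −0.21 and that for CLDN1 and MARVELD3 from 0.89 to −0.28, so their likeness rested on the MCF10AT1 knockdown libraries. Some pairs ran opposite over the 18 libraries, with r = −0.78 for CLDN3 and CLDN7, −0.68 for CLDN3 and CLDN4 and −0.58 for TJP1 and TJP3. All 10 genes had equal weight in the mean level of the set, CLDN3 with its values under 10 among them. The libraries share lines and constructs and are not independent points, and no p is given.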

How the data were processed

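The authors sequenced stranded total RNA libraries after ribosomal RNA depletion from both ends, although the molecule field of the labels reads polyA RNA, and which holds was not resolved. Per the labels they pseudo-aligned reads to the hg38 transcriptome with kallisto 0.46.1 and normalized gene values with DESeq2 1.26.0 in R 4.1.1, and the annotation release is not given in the sources used here. The deposited values are normalized counts, a signal comparable between libraries of a gene but not between genes. The table had 35933 genes with values, 24639 blank rows and 7 rows with a stray number. A symbol was matched for 35894 genes through their identifiers, 39 had none, and 294 had a symbol that another gene also holds. Whole multiples (within 0.05) of a library's most frequent low value made up 26.2% to 46.4% of its low values, so read counts were not recovered, and no counting interval can be given.

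Tests were run in R 4.3.3 with limma 3.58.1 (intensity trend) on log2 of the normalized count plus 1, over genes with a mean of at least 10 in the libraries of the fit. Fold changes are on that scale and understate the change of low genes. All p-values are two-sided. Those of limma were adjusted over all genes tested by Benjamini-Hochberg with a threshold of 0.05, apart from the counts given at an unadjusted p. The share of all genes at an unadjusted p is not given, so no result is drawn from those counts. The exact permutation p-values of METTL3 were not adjusted. Each line was fitted alone, the 9 controls together, and differences of response in 1 fit of 18 libraries. The fit was checked on simulated data. Other values were computed with Python 3.11.15, pandas 2.3.3 and SciPy 1.17.1, and plots were made with matplotlib 3.10.9. Positions are those of GENCODE 44 on hg38, and promoter sequences come from RefSeq on GRCh38.p14.

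Replicate letters were read from the titles. Deviations from the group means of libraries with the same letter correlated over 15897 genes at 0.221, 0.2 and 0.116 in MCF10A. In MCF10AT1 they did so at 0.11, 0.289 and 0.477. Unlike letters gave −0.17 to 0.009 in MCF10A and −0.413 to 0.251 in MCF10AT1, the highest for control b with knockdown a. MCF10A control b and MCF10AT1 control c reached 0.355. The letters were taken to pair the libraries of MCF10A and MCF10AT1, which values of this size do not establish. In MCF10CA1H libraries with the same letter correlated at −0.011, 0.017 and 0.046 and were not paired.

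The 10 genes and the further lists were chosen with earlier results of these data known. Further junction genes are named where they are among the 3 largest changes of a line with a mean of at least 50, called genes of the lists are named beside their counts, and transcription factors are described singly after their values were seen. Alternatives were other pseudocounts, filters, scalings, thresholds, fits, a replicate block and leaving out each library.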

Additional observations from a re-analysis of the deposited data

Results flagged for a closer look

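The gap between labelled knockdown and control differed between lines for 7 genes in each of the contrasts below (interaction contrast, limma over 18 libraries). These contrasts share the MCF10AT1 libraries. Each group is 1 line grown from a single cell, so construct and founder cell cannot be told apart here either. In log2 units MCF10AT1 minus MCF10A was −5.50 for CLDN1, −6.85 for CLDN4, −7.75 for CLDN7, −3.67 for OCLN, −4.27 for MARVELD2, −6.28 for MARVELD3 and −6.08 for CGN. MCF10CA1H minus MCF10AT1 was 4.02 for CLDN1, 6.91 for CLDN4, 7.65 for CLDN7, 3.61 for OCLN, 3.34 for MARVELD2, 5.98 for MARVELD3 and 5.06 for CGN. Groups held 3 libraries each and were not tested for a library that stands apart. MCF10AT1 control b had 20121 genes above 0, the fewest of the 18 libraries, against 24648 and 26330 in controls a and c. Its most frequent low value was 1.77, against 0.94 and 0.86 in those controls.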

How the results depend on the processing

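The count of called genes in MCF10AT1 was 8 in every alternative that kept all libraries, except 9 with the replicate block and 6 at an adjusted p of 0.01. The 8 of the fit of 18 libraries were another set, with TJP1 called (0.0206) and TJP3 not (0.0721). In MCF10A the count of 2 became 1 with a pseudocount of 0.5, a mean of at least 50, equal sums (1 higher) or no intensity trend (OCLN, adjusted p = 0.0429, with CLDN1 at 0.113 and CLDN7 at 0.0776), and 0 in the fit of 18 libraries or at 0.01. In MCF10CA1H the count of 3 became 1 without the trend and 0 in the fit of 18 libraries or at 0.01. Among controls the count for MCF10AT1 against MCF10A went from 7 to 4 with equal sums and 1 at 0.01, and for MCF10CA1H against MCF10A from 5 to 2 at 0.01. The cause was not tested. Leaving out 1 library gave counts of 0 to 4 in MCF10A, 6 to 8 in MCF10AT1, 1 to 3 in MCF10CA1H, 1 to 8, 2 to 6 and 3 to 4 for MCF10AT1 and MCF10CA1H controls against MCF10A and MCF10CA1H controls against MCF10AT1, and 7 to 8, 0 to 1 (1 without MCF10A control a) and 7 to 8 for the differences of response MCF10AT1 against MCF10A, MCF10CA1H against MCF10A and MCF10CA1H against MCF10AT1. With the letter as a replicate block the counts were 3 in MCF10A and 9 in MCF10AT1, and the block changed no call in MCF10CA1H or in the differences of response. Among the control lines, which the letters do not pair, it gave 5 genes for MCF10AT1 against MCF10A and called OCLN for MCF10CA1H against MCF10AT1 (adjusted p = 0.0498).

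None of the 42 called values changed sign in 871 alternatives, and 775 of these stayed past the threshold. Of the 39 values that did not pass, 11 changed sign in some alternative. With all libraries kept these were CGN in MCF10A (0.07, equal sums), TJP1 in MCF10CA1H against MCF10AT1 controls (0.10, equal sums), and in the difference of response of MCF10CA1H against MCF10A, CLDN7 (0.08, pseudocount 5) and CLDN4 (−0.09, equal sums). With 1 library left out they were, in MCF10A, CGN (−0.50 to 0.38), MARVELD3 (−0.01 to 0.13) and TJP3 (−0.14 to 1.06), in MCF10CA1H CLDN1 (−0.18 to 0.02) and TJP1 (−0.05 to 0.22), among controls CLDN1 for MCF10AT1 against MCF10A (−0.62 to 0.15), MARVELD2 (−0.58 to 0.19) and TJP1 (−0.27 to 0.44) for MCF10CA1H against MCF10AT1, and in the difference of MCF10CA1H against MCF10A CLDN4 (−0.33 to 0.55), CLDN7 (−0.51 to 0.58) and OCLN (−0.31 to 0.12). Equal sums moved the median of all genes from 0.02 to −0.15 in MCF10AT1, from −0.01 to −0.15 for MCF10AT1 against MCF10A controls and from 0.05 to 0.16 for MCF10CA1H against MCF10AT1 controls, while that of the 9 genes in MCF10AT1 went from −4.90 to −5.04. Depth per gene is unknown, and values under 10 are the least certain.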
